A study of Zea mays with 27 samples.

Results

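The genes described here belong to sucrose and starch metabolism in maize. They were sus1 (LOC542247, a sucrose synthase), SPP2 (LOC542661, a sucrose-phosphate phosphatase), wx1 (LOC541854, the granule-bound starch synthase) and bt1 (LOC732804, the ADP-glucose carrier of the amyloplast envelope). They are 4 of the 532 genes that the platform's gene table names, and every cDNA probe that the table assigns to exactly 1 of them was taken. This gave 10 of the 18303 probes with values and 10 of the 1607 probes that bear 1 gene name, of which 6 were for sus1, 1 for SPP2, 2 for wx1 and 1 for bt1. The genes were picked by identity, but with their array-to-array spread already known, so the values below are a description and carry no test.

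The study compared seedlings of 2 maize inbreds, B73 and Mo17, with the F1 from a cross that had Mo17 as seed parent and B73 as pollen parent. Above-ground tissue was harvested at 14 days, and RNA of 6 seedlings was pooled per genotype and replication. Of 10 replications 9 were kept, each with 3 two-colour cDNA arrays that paired the genotypes in a loop, and the 27 arrays (S1 to S27, scanned at the low setting named in the series title) were hybridized with Cy3 in channel 1 and Cy5 in channel 2. The labels name 1 channel of 1 array (F1 in Cy3 on S1) and no complete pair of genotypes. The arrays therefore stand in no group, no B73, Mo17 or F1 contrast is given, and since arrays of 1 loop share RNA pools they are not independent of each other.

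Sucrose is the main form in which fixed carbon travels in maize. SPP2 belongs to the enzymes that release sucrose from sucrose phosphate, the last step of its synthesis in leaves, and sucrose synthase splits sucrose into UDP-glucose and fructose where it is consumed. In the endosperm, ADP-glucose made in the cytosol enters the amyloplast through the bt1 carrier, and wx1 uses it to build amylose. The waxy and brittle kernels for which wx1 and bt1 are named come from loss of these steps in the endosperm, a tissue that a harvest of seedling shoots does not contain. A log ratio between channels holds no level, so the order of expression among the genes and the identity of the tissue could not be checked from these values.

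Each array gave 1 log ratio per probe, read as a natural log, converted to the log2 scale and set to 0 at the array's median. The scale of the deposited values is not settled, and all folds rest on this reading. The labels do not say which dye is the numerator, so a value is only above or below the array median. The spread of a probe is its 90th minus its 10th percentile over the 27 values, and a spread of 1 equals 2-fold. On this measure 8 of the 10 probes reached 2-fold, namely 4 of the 6 for sus1 and all those for SPP2, wx1 and bt1. Of all probes 79.2% reached it, and of gene-named probes 65%, so the count says little about these genes. The median spread was 1.54 over all probes and 1.17 over gene-named probes. A ratio from pooled whole shoots also cannot tell a difference in RNA per cell from a difference in the number of cells that express a gene.

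**Figure D1:**
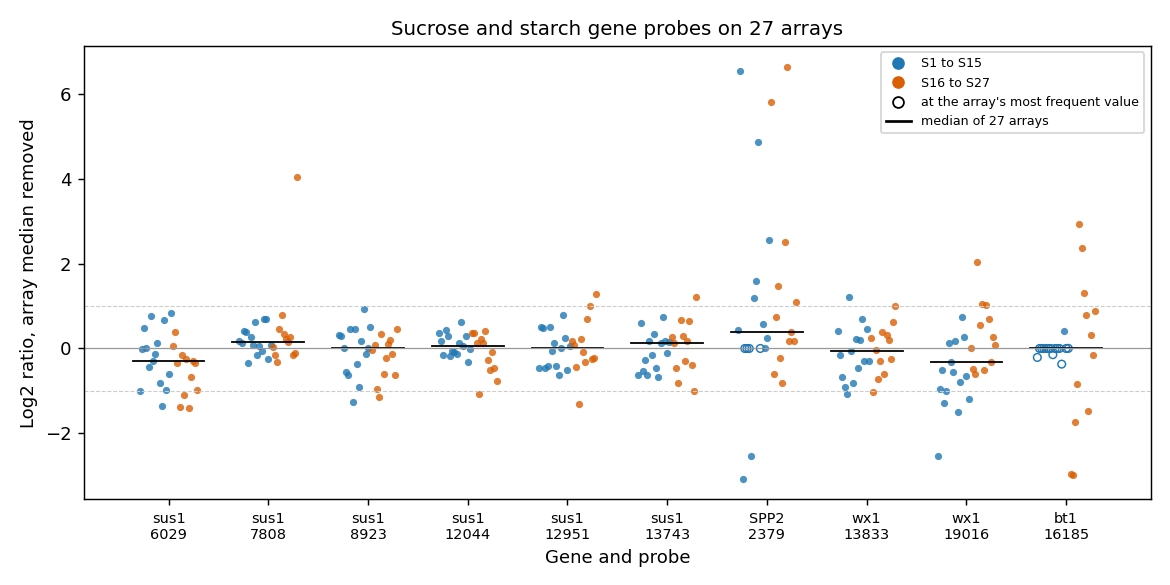
Log2 ratios, array median removed (y axis), of the 10 probes (x axis) on 27 arrays; blue points are S1 to S15, orange points S16 to S27, open circles are values equal to the array's most frequent value, and black bars are medians. The SPP2 probe reaches 6.65, the bt1 probe lies near 0 on S1 to S15 and between -2.997 and 2.93 on S16 to S27, and the sus1 probes stay mostly within 2-fold.

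Sucrose synthase sus1 had narrow to moderate ratios. Probe 6029 was lowest at -1.41 (S23), had a median of -0.30 and was highest at 0.84 (S15). Probe 8923 ran from -1.26 (S7) to 0.94 (S12) with a median of 0.01. Probe 12951 ran from -1.31 (S19) to 1.28 (S27) with a median of 0.01. These probes lay at least 2-fold from the array median on 5, 2 and 2 of the 27 arrays, and probe 6029 did so below the median each time. Probe 13743 ran from -1.005 (S26) to 1.22 (S27) with a median of 0.14. Probe 12044 ran from -1.07 (S19) to 0.63 (S11) with a median of 0.06. Probe 7808 ran from -0.35 (S5) to 4.05 (S27) with a median of 0.16, and its next highest value was 0.79 (S20).

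The spreads of the 6 sus1 probes were 0.86 (12044), 0.88 (7808), 1.20 (12951), 1.31 (13743), 1.40 (8923) and 1.77 (6029), with a median of 1.25. Between 20.8% and 77.8% of gene-named probes were narrower, so sus1 covered the middle of that distribution rather than an end. The probes just under 2-fold were 7808 and 12044, and the one just above it was 12951. None of the 6 ever shared its value on an array with 2 or more other spots, as was the case for 83.3% of gene-named probes.

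**Figure D2:**
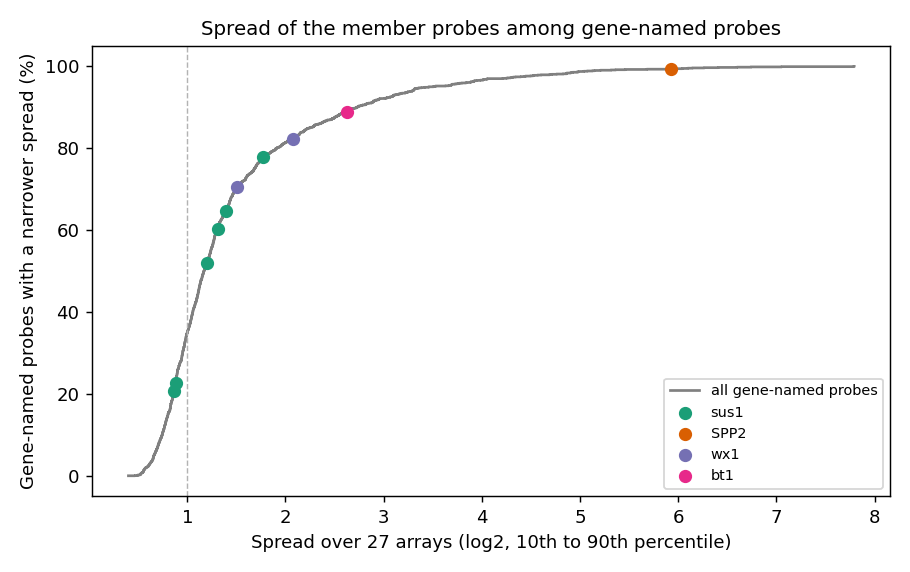
Share of the 1607 gene-named probes with a narrower spread (y axis, percent) against spread over 27 arrays (x axis, log2); the grey line is all gene-named probes, coloured points are the 10 probes, and the dashed line marks 2-fold. The SPP2 probe is wider than 99.4% of gene-named probes, and the narrowest sus1 probe is wider than 20.8%.

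The single 4.05 of probe 7808 on S27 belonged to a stretch of the array. Runs of 400 spots in table order, taken as printing blocks, had their own medians, and the block that holds this probe lay 3.33 above the array median on S27. With the block median removed, the value was 0.72, and no value of probe 7808 then lay 2-fold from 0. The S19 value of probe 12951 moved likewise, from -1.31 to -0.15.

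Since sus1 had 6 probes, their likeness over arrays could be measured. Over the 15 pairs of sus1 probes, Pearson's r had a median of 0.20 and ran from -0.39 to 0.81 across 27 arrays. All pairs of gene-named probes had a median of 0.01, and same-gene pairs had 0.19. Of 63 genes with at least 15 such pairs, 42 had a lower median than sus1 and 20 a higher one. That place rested on single arrays: the sus1 median was 0.06 without S19, when 17 genes were lower, 0.32 without S11, when 54 were lower, and 0.33 without S27, when 53 were lower. The rank was taken with block offsets left in. With block medians removed the sus1 median was 0.38, and it was 0.37 in S1 to S15 alone and 0.23 in S16 to S27 alone. These correlations are descriptions without a p, because arrays share RNA pools and block offsets.

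Probes 8923, 12951 and 13743 were most alike, a choice made after their values were seen. Pearson's r was 0.81 (Spearman's rho 0.79) for 12951 with 13743, 0.69 (0.66) for 8923 with 12951 and 0.67 (0.68) for 8923 with 13743. Without the 2 arrays farthest from the median of the first probe of each pair, r was 0.74, 0.67 and 0.69. In S1 to S15 alone r was 0.76, 0.62 and 0.64, and in S16 to S27 alone it was 0.84, 0.85 and 0.81. The probes stand in 3 different blocks (23, 33 and 35), and with block medians removed r was 0.78, 0.68 and 0.76. The 3 probes shared a side on 21 of 27 arrays, all above the median on 11 and all below it on 10.

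The other sus1 probes were less like these. Probe 7808 had r from 0.32 to 0.58 with the 3. Probe 6029 had r from -0.17 to 0.34 with the other 5 sus1 probes, and probe 12044 had r from -0.39 to 0.19 with them. The lowest pair, 7808 with 12044, rested on S27, without which r was -0.06, and with block medians removed it was 0.11. Probe 6029 with probe 12044 had r of -0.56 in S1 to S15 and of 0.70 in S16 to S27. cDNA probes can also bind RNA of similar genes, and its part in these differences was not tested.

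**Figure D3:**
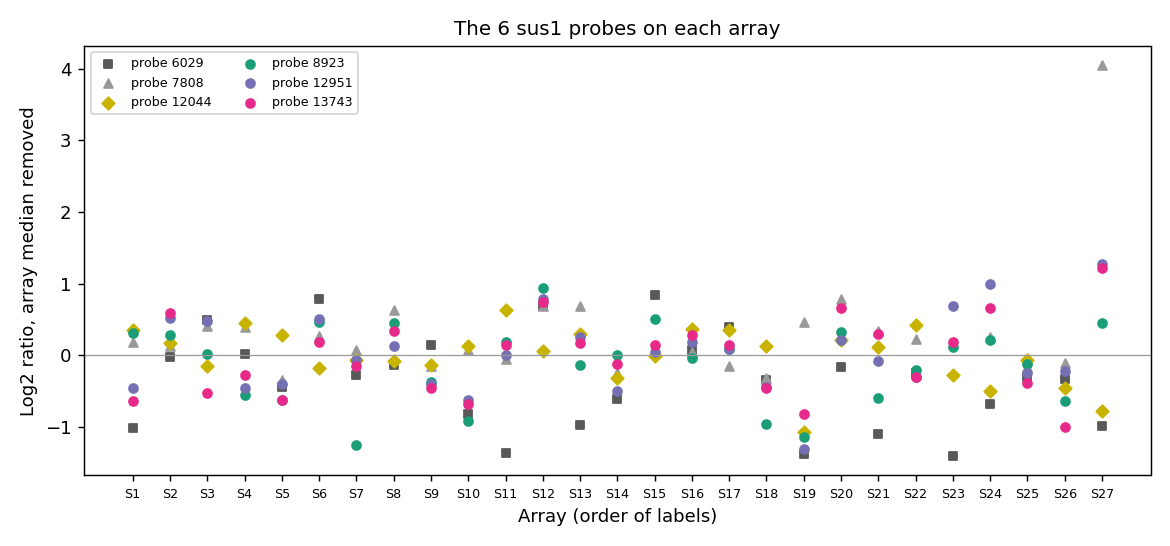
Log2 ratios, array median removed (y axis), of the 6 sus1 probes on each of the 27 arrays (x axis, in the order of labels, which is no time or group order); circles are probes 8923, 12951 and 13743, the square is 6029, the triangle 7808 and the diamond 12044. The 3 circles lie together on most arrays, all 6 probes lie below on S25 and S26 and all above on S12, and probe 7808 stands at 4.05 on S27.

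With 1 value per array, the median of its 6 probes, sus1 ran from -1.10 (S19) to 0.84 (S27) with a median of 0.07. It lay above the array median on 15 arrays and below on 12. The lowest value, on S19, was the only one at least 2-fold from the array median, and S19 was also the array with the widest ratios, with 39.1% of all probes at least 2-fold from its median. The spread of this gene value was 0.72, below that of every single sus1 probe. Within an array the 6 probes covered a range with a median of 0.95, from 0.32 to 5.03 (S27). All 6 were above on 1 array (S12) and all below on 2 (S25 and S26).

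SPP2 had by far the widest ratios of the 10 probes. Its probe 2379 ran from -3.07 (S3) to 6.65 (S23) with a median of 0.39, and its spread was 5.93. The next highest values were 6.55 (S2), 5.81 (S16) and 4.87 (S10), and the next lowest was -2.54 (S7). It lay at least 2-fold from the array median on 12 arrays, 10 above and 2 below, and within 0.5 of it on 11 arrays. The probe thus lay close to the median on some arrays and far from it on others, and the interquartile range was 1.53. With S2, S16 or S23 left out singly the spread was 4.42 each time, the lowest value with any array left out.

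The SPP2 values were repeated among spots more often than those of sus1. On 4 arrays (S4, S5, S6 and S11) the probe was at the commonest value of the array, which centred to 0. On 12 arrays its value was shared with at least 2 other spots, as on S2, where 7 other spots had the same 6.55, and on S7, where 12 others had the same -2.54. All 12 were among S1 to S15, the arrays on which many spots share a value. On S16 to S27 it was shared with at most 1 other spot. Of gene-named probes 4.73% had shared values on at least 12 arrays. With the most frequent value taken as missing the spread was 6.39, and with block medians removed it was 5.58. In S1 to S15 alone the spread was 5.47, and in S16 to S27 alone it was 6.04. Since SPP2 had 1 probe, no other probe of the gene bears on its size.

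Granule-bound starch synthase wx1 had 1 probe with a wider spread than any sus1 probe and 1 with a wider spread than all sus1 probes but 6029. Probe 13833 ran from -1.08 (S5) to 1.22 (S6) with a median of -0.06 and a spread of 1.51. Probe 19016 ran from -2.54 (S1) to 2.04 (S19) with a median of -0.33 and a spread of 2.07. They lay at least 2-fold from the array median on 4 and 7 arrays, with values on both sides. Neither shared its value with 2 or more spots on any array. The 2 probes were on the same side of the median on 21 of 27 arrays, and their values differed by a median of 0.56 and by 2.97 on S1.

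The block of probe 19016 moved its values. The block median was -2.84 on S1 and -1.91 on S15 relative to the array median, and with block medians removed the values there were 0.30 and 0.72. The S19 value fell to 0.98. The spread of this probe was then 1.19, against 1.46 for probe 13833, so the order of the pair turned. The correlation between the 2 probes was 0.23 (Spearman's rho 0.34), 0.20 without S6 and S27, and 0.53 with block medians removed. It was 0.31 in S1 to S15 and 0.09 in S16 to S27.

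The amyloplast carrier bt1 was nearly constant on S1 to S15 and varied widely on S16 to S27. Its probe 16185 ran from -2.997 (S17) to 2.93 (S20) with a median of 0.00 and a spread of 2.63. On 14 of the 15 arrays S1 to S15 it held the array's most frequent value, shared with 451 to 2544 other spots, and on the remaining one (S13) it was 0.41, a value shared with 16 others. On S16 to S27 it never held that value, and it lay at least 2-fold from the array median on 7 of the 12 arrays. Its spread was 0.19 over S1 to S15 alone and 5.10 over S16 to S27 alone, and with the repeated value taken as missing the spread was 4.87. Of gene-named probes 0.685% were at the most frequent value on 14 arrays or more.

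The values on S16 to S27 went both ways. The bt1 probe was at -2.97 on S16, -1.74 on S18 and -1.47 on S24, next to 2.36 on S21 and 1.30 on S22. With block medians removed the S18 value was -0.47 and the S21 value 3.52, while S16, S17 and S20 stood at -2.79, -2.62 and 2.82. Both sets of arrays differ in how many spots share 1 value: 452 to 2545 probes on each of S1 to S15 and 11 to 87 on each of S16 to S27. Whether the sets also differ in scanning or processing is not given in the sources used here, so the wide values of bt1 on 1 set cannot be told apart from the way that set was made.

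**Figure D4:**
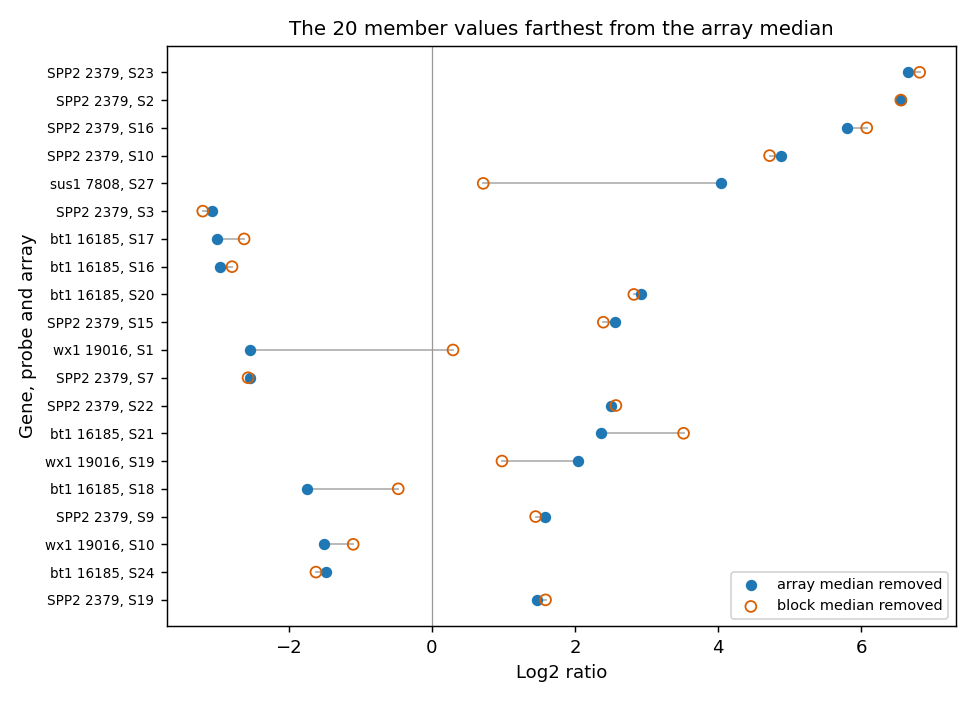
The 20 values of the 10 probes farthest from the array median (y axis, gene, probe and array) on the log2 scale (x axis); filled circles have the array median removed and open circles the median of the probe's block of spots. The large SPP2 values move little, whereas 4.05 for sus1 on S27 becomes 0.72 and -2.54 for wx1 on S1 becomes 0.30.

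Set side by side, the sucrose genes (sus1 and SPP2, 7 probes) had a median spread of 1.31 and the endosperm-type starch genes (wx1 and bt1, 3 probes) 2.07. The ranges overlapped, from 0.86 to 5.93 and from 1.51 to 2.63. The order depended on how probes were weighed, since 6 of the 7 sucrose probes were for sus1. With 1 value per gene the sucrose genes stood at 3.59 and the starch genes at 2.21, the reverse order. Values at least 2-fold from the array median made up 13.2% of 189 for the sucrose genes, 22.2% of 81 for the starch genes and 12.3% for gene-named probes. On S1 to S15 these shares were 9.52% and 13.3%, and on S16 to S27 they were 17.9% and 33.3%, where gene-named probes had 11.4% and 13.4%. The bt1 probe gave 7 of the starch values, all on S16 to S27. The shares hold block offsets. With block medians removed wx1 probe 19016 was that far out on 2 arrays instead of 7 and wx1 probe 13833 on 3 instead of 4. The bt1 probe stayed at 7 and SPP2 at 12, sus1 probe 8923 rose from 2 to 4, and the other sus1 probes fell. All probes had wider ratios than gene-named ones (median spread 1.54 against 1.17). On single arrays the share of all probes at least 2-fold from the median ran from 4.64% (S17) to 39.1% (S19), so gene-named probes are the lower of these backgrounds. With 2 genes on each side, no contrast between the kinds of gene was tested.

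Within each side the genes differed from each other. SPP2 and bt1, with 1 probe each, had the widest spreads and held repeated values on 4 and 14 arrays. The wx1 and sus1 probes never held a repeated value, and without the bt1 probe the starch genes still had a median spread 0.48 above that of the sucrose genes. With block medians removed the difference of 0.76 between the medians became 0.24. Over all 270 values of the 10 probes, 43 lay at least 2-fold from the array median, 6 of them on S19 and 5 on S27, and 4 arrays (S12, S13, S14 and S25) had none. On S19 and S27 the share of all probes that far from the median was 39.1% and 22.98%.

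Correlations between the genes over arrays were low. Over the 29 pairs of probes of different genes, r had a median of 0.07 and ran from -0.57 to 0.43. The SPP2 probe had r between -0.13 and 0.14 with the other 9, and the bt1 probe between -0.24 and 0.29. The highest pair was wx1 13833 with sus1 12951, at 0.43 (0.27 without S6 and S27), and the lowest was wx1 19016 with sus1 12044, at -0.57 (-0.37 without S19 and S1). With 1 value per gene, sus1 and wx1 had r of 0.25 and were on the same side on 17 of 27 arrays, wx1 and bt1 had 0.16, sus1 and SPP2 had -0.05, and SPP2 and bt1 had -0.12.

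**Figure D5:**
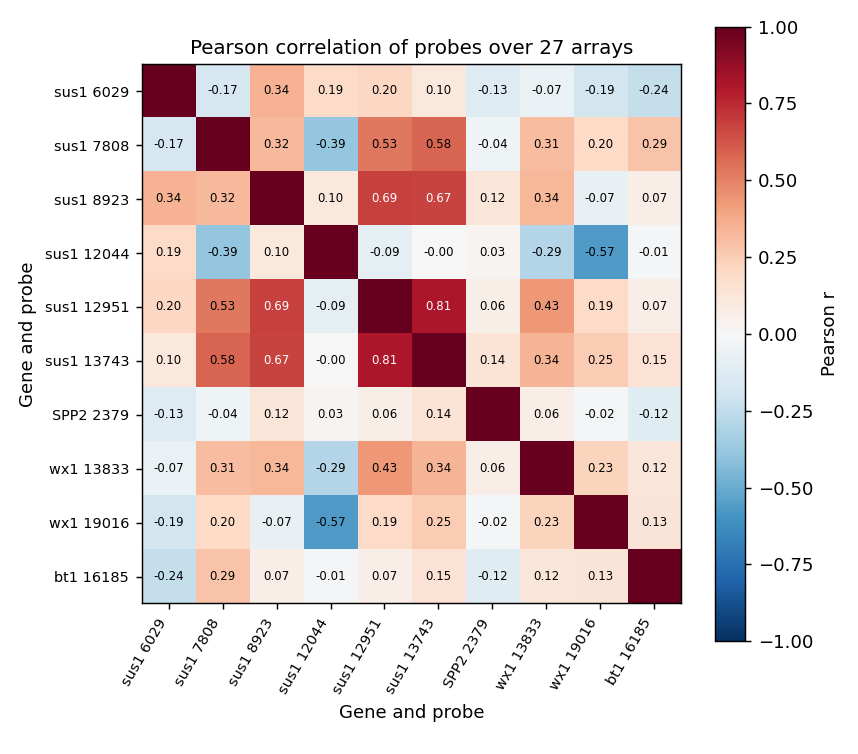
Pearson correlation over 27 arrays (colour, from -1 to 1) for each pair of the 10 probes (both axes). The block of sus1 probes 8923, 12951 and 13743 has values from 0.67 to 0.81, and the row of SPP2 has none beyond 0.14 in size.

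The genes whose profile over 27 arrays was most like that of sus1, among 527 others with 1 value per gene, were LOC542367 (GAPC1, a cytosolic glyceraldehyde-3-phosphate dehydrogenase of glycolysis) at r of 0.67, LOC541942 (csu503(met)) at 0.67 and LOC542348 (tif-4A3, a translation initiation factor) at 0.64. All 3 had r of at least 0.58 within each set of arrays, but 0 of the 3 were among the 3 most like sus1 in either set alone. For SPP2 they were LOC732753 (cystatin4, an inhibitor of cysteine proteases) at 0.62, LOC100125654 (rnc1, which takes part in chloroplast intron splicing) at 0.55 and LOC606410 (pdi2, a protein disulfide isomerase) at 0.52, with r of 0.69, 0.72 and 0.26 in S1 to S15 and of 0.54, 0.21 and 0.75 in S16 to S27. For wx1 they were LOC541840 (gst28) at 0.74 and LOC541847 (GST38) at 0.65, both named as glutathione transferases, with LOC606422 (aprl6) at 0.66. In S1 to S15 r was 0.88 for gst28, 0.71 for GST38 and 0.63 for aprl6, and in S16 to S27 it was 0.44, 0.49 and 0.64. For bt1 they were LOC542257 (zap1, a MADS-box gene) at 0.70, LOC542237 (ohp2, a bZIP factor that pairs with Opaque2 in the endosperm) at 0.59 and LOC542294 (abp4, an auxin-binding protein) at 0.59. For bt1 the likeness came from S16 to S27, where r was 0.82, 0.73 and 0.73, against -0.18, 0.20 and 0.23 within S1 to S15. With block medians removed, the named genes still among the 3 most like numbered 1 for sus1, 2 for SPP2, 0 for wx1 and 1 for bt1. Within S16 to S27 alone they numbered 1 for SPP2, 0 for wx1 and 1 for bt1, and within S1 to S15 alone 2, 1 and 0.

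Of 55 names listed for sucrose and starch metabolism, 7 further genes were found on the platform, with 20 probes, of which 18 reached 2-fold (median spread 1.28), as did 65% of gene-named probes. One of them, LOC542737, is named AGP2, a symbol that also stands for arabinogalactan proteins, so its role is uncertain. It had 9 probes with spreads from 0.63 to 1.28. The other 6 genes had 11 probes with spreads from 1.19 to 3.32 and a median of 1.42, against 1.17 over gene-named probes. Starch branching enzyme sbe1 (LOC542315) had 3.32, and the debranching enzyme zpu1 (LOC541711), a pullulanase, had 3.31. Both had narrower ratios on S16 to S27 (1.63 and 1.18) than on S1 to S15 (4.60 and 3.90), the opposite of bt1. The ADP-glucose pyrophosphorylase subunit genes agp2 (LOC542072, synonym Agpsemzm) and bt2 (LOC541902) had 2.67 and 1.29. They too were narrower on S16 to S27 (1.75 and 0.87) than on S1 to S15 (4.66 and 1.68). The branching enzyme ae1 (LOC542238) had 1.42 and was wider on S16 to S27 (1.53) than on S1 to S15 (1.15).

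The remaining one was sh1 (LOC542365), the sucrose synthase known from the shrunken endosperm, which had 6 probes like sus1 and makes a close comparison. Its spreads ran from 1.19 to 1.64 with a median of 1.36, near the 1.25 of sus1. The 15 pairs of sh1 probes had r from 0.15 to 0.79 with a median of 0.59, whereas the sus1 pairs had a median of 0.20. With block medians removed the sus1 median was 0.38, and the sh1 median on that footing is not given here. With any array left out the sh1 median stayed between 0.54 and 0.61 and the sus1 median between 0.06 (without S19) and 0.33 (without S27). Across the genes, the 36 pairs of a sus1 with a sh1 probe had a median of 0.32. With 1 value per gene, sh1 ran from -0.60 (S1) to 0.71 (S12), and its r with sus1 was 0.60 (Spearman's rho 0.61), the 7th highest among 527 genes. The genes shared a side of the median on 21 of 27 arrays. The correlation was 0.66 in S1 to S15, 0.62 in S16 to S27 and 0.53 with block medians removed. Both genes encode sucrose synthase and their cDNAs are similar, so how much of this likeness is shared hybridization was not tested.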

How the data were processed

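The authors' deposited table holds 1 value per spot and array for 27 two-colour cDNA arrays, with 19200 spots, of which 897 were empty. Per the labels, Cy3 is channel 1 and Cy5 channel 2. The sources used here name no scanner software, background correction, normalization or numerator. The deposited values were read as natural log ratios: among values that 3 or more spots of an array share, distances of 2 ln k, with k whole between 2 and 10 (tolerance 2e-05), occurred in 106 pairs, against 5.50 at shifted distances, and in 3 pairs for base 2 (2.83 shifted). The only spacing given here is 2 ln k. It would also arise from values equal to 2 times a natural log ratio, under which every spread and fold would be smaller. This or another constant multiple is not excluded. All folds rest on the reading as plain natural log ratios. Values were converted to the log2 scale and centred on each array's median. On 15 arrays (S1 to S15) 2% or more of the probes held the most frequent value, and the other 12 were kept apart in checks. Percentiles, correlations and profiles (per-array median over a gene's probes) were computed with Python 3.11.15, numpy 2.4.6 and pandas 2.3.3. The spread, Pearson correlation and block centring were tested on simulated data without repeated values, and the profiles were not. No array had a group, so no test between genotypes was run. Precision is limited by the number of arrays.

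Gene identity came from the platform's gene table, with synonyms from RefSeq's annotation of Zm-B73-REFERENCE-NAM-5.0. All probes of the 4 genes are named. Outside them, the text names the 3 genes most correlated with each (the uncertain name MNB1b left out) and further pathway genes from a list of symbols. Members and lists were chosen with earlier results of these data known. The comparison of sus1 with sh1 and the choice of 3 alike sus1 probes were made after the values were seen.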

Additional observations from a re-analysis of the deposited data

How the results depend on the processing

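Spreads were called unmoved within 1.5 times, correlations within 0.2 and the difference between starch and sucrose genes within 0.5, and 46 planned and 9 added values were unmoved when arrays were not left out singly. The count of probes reaching 2-fold (8) was 5 when values were taken as log2 without conversion, a question of the unsettled scale. It was 5 at a threshold of 1.5 and 1 with the interquartile range, both stricter by construction. The shares of all or gene-named probes under these settings are not given here, so these counts have no background to be read against. With the interquartile range the spreads were 0.76 for sus1, 1.53 for SPP2, 0.94 for wx1 and 0.35 for bt1. The bt1 spread was 0.19 in S1 to S15, 5.10 in S16 to S27 and 4.87 with repeated values as missing. The starch minus sucrose difference of 0.76 reversed to -1.38 with 1 value per gene, because SPP2 then weighs as much as the 6 sus1 probes, and it was 0.24 with block centring, 0.14 within S16 to S27 and 0.12 with the interquartile range, where the cause was not tested. Among the 12 genes most like the 4, 3 were again most like in S1 to S15 and 2 in S16 to S27, and in settings added after seeing the data 4 with block centring and 6 with Spearman's rho, so these names depend on the arrays used. With an array left out, the count stayed at 8 and the ranges were 1.18 to 1.26 (sus1), 4.42 to 6.04 (SPP2), 1.70 to 1.82 (wx1), 2.25 to 2.70 (bt1), 0.63 to 0.87 (difference) and 0.06 (without S19) to 0.33 (without S27; 0.32 without S11) for the median correlation of sus1 probes. No paired analysis was possible because the arrays have no groups. Signal over background was not part of the table, so the effect of dim spots on the ratios is unmeasured.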
